A study of Mus musculus with 127 samples.

Results

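Cell39 was 1 of 10 nuclei of F123 mouse embryonic stem cells whose DNA was read slice by slice, and it was chosen by measured values: 2 of its 11 slice positions held most of its located DNA, and its chromosome 12 was densely covered. All autosomal 10 kb windows of its 2 position files were taken, which gave 52534 windows (26701 in file 0 and 25833 in file 1) of the 1132635 autosomal windows located in the whole series. The share of the fullest pair and the chromosome 12 coverage chose this nucleus, so they are given as a description with no test. The other 9 nuclei served as comparison.

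In interphase each chromosome keeps to a territory of its own, and a thin slice through a nucleus cuts some territories broadly, some narrowly and others not at all. Genome architecture mapping, or GAM, sections frozen nuclei and sequences the DNA in each slice, called a nuclear profile. When the slices of a single nucleus are kept in sequence, a stretch of DNA found in a slice also gains a place along the cutting axis. Gene-rich chromatin is known to lie more often in the nuclear interior and gene-poor chromatin at the lamina and around nucleoli. In the mouse, ribosomal RNA genes sit near the centromeres of a few chromosomes, 12, 15, 16, 18 and 19 among them, and gather in nucleoli.

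F123 is an embryonic stem cell line from a cross labelled CAST x 129. The cells received no treatment, grew in LIF medium on feeder fibroblasts, and were passaged without feeders before use. DNA of every nuclear profile was whole-genome amplified and sequenced. Cell39 had 11 of the 122 profiles and carried the title prefix B18F, as did 5 other nuclei, while the remaining 4 nuclei carried B16F. The 5 control profiles have no position file and were not analysed here.

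A position file lists 10 kb windows of the mm10 genome with a coordinate along the axis. No source used here names the unit of that axis or says what the 2 files of a nucleus stand for, and no label ties a position to a particular profile. In Cell39 the coordinates ran from 1.0438 to 3.0438, and 11 positions 0.2 apart, equal in number to its profiles, are called slices 1 to 11 here in order of the axis. Which end of the axis was cut first is not known. Read depth behind each window is unknown, since positions alone were given. Intervals given for shares are exact Clopper-Pearson 95% intervals that cover counting error only, and neighbouring windows are not independent. The labels do not say whether the nuclei came from separate cultures, so p-values over nuclei measure only the spread between these nuclei.

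Slices 10 and 11, the last positions at the top end of the axis, held most of the windows located in the nucleus. Slice 11 carried 29865 windows, 15247 from file 0 and 14618 from file 1, which was 64.3% of all windows on slice positions. Slice 10 carried 9458 windows, 4799 from file 0 and 4659 from file 1, or 20.4%. The position next in rank was slice 1, at the opposite end of the axis, with 1696 windows. The sparsest was slice 3 with 439 windows. The 9 slices outside the pair together held 7152 windows, or 15.4%. A further 6059 windows lay between slice positions, and 2430 of them lay above slice 10.

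The fullest pair thus held 84.6% of the windows on slices. Equal slices would give 18.2%. Over the other 9 nuclei the same share was lowest at 26.1% in Cell19, had a median of 43.8% and was highest at 60.1% in Cell27, so Cell39 lay above all of them. Its pair held 4.65 times the equal share, against 1.57 to 3.38 times elsewhere. Cell38 was the other nucleus whose 2 fullest slices were neighbours. Cell39 also had the fewest autosomal windows of the 10 nuclei, 52534 against 79782 to 172914, and the largest part of them on slice positions, 88.5% against 62.9% to 78.1%. The 2 files gave nearly the same pair share, 84.65% and 84.57%. Counted as distinct 1 Mb bins in each slice, whatever the number of windows in a bin, the pair's share was 52.5%.

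**Figure D1:**
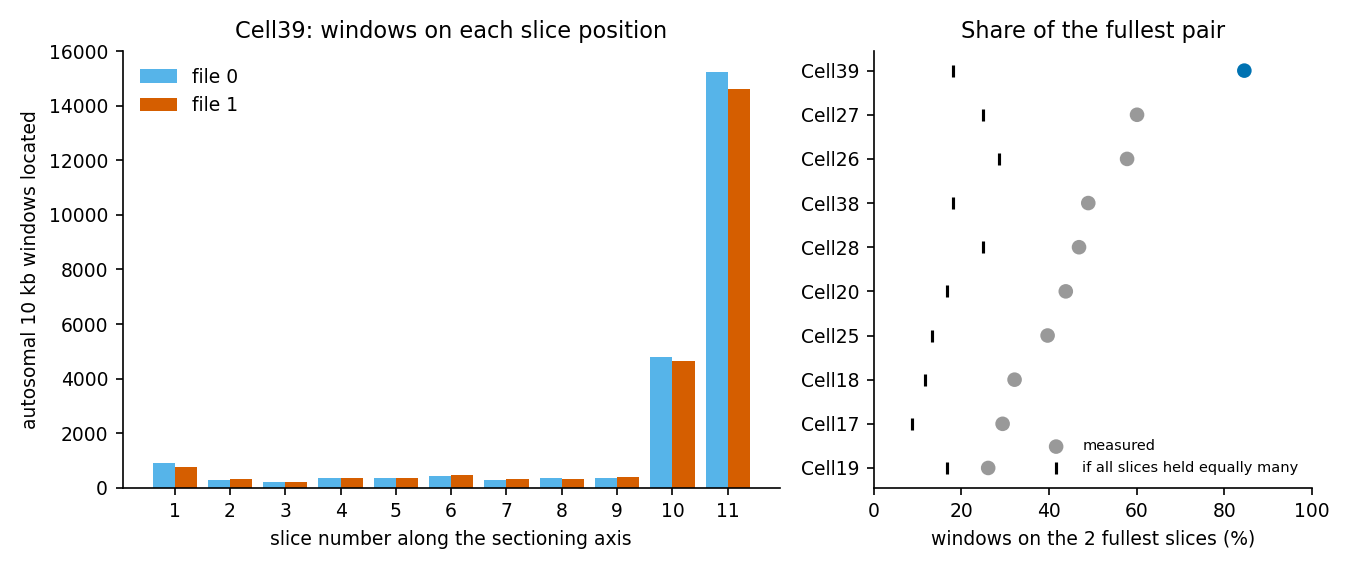
Left, autosomal 10 kb windows (vertical axis, count) on each of the 11 slice positions of Cell39 (horizontal axis, numbered along the sectioning axis), with file 0 and file 1 as separate bars; slices 10 and 11 stand far above the other 9. Right, percent of on-slice windows held by the 2 fullest slices in each of 10 nuclei (points), with the share that equally filled slices would give (ticks); Cell39 at 84.6% lies above the other 9.

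Every autosome had windows in both dominant slices, but in different proportion. Of the windows that all autosomes had in the pair, 75.9% lay in slice 11. Chromosomes 16, 3, 5 and 13 leaned most to slice 11. For chromosome 16 the share was 87.2% (interval 85.7 to 88.6), from 1794 windows in slice 11 and 263 in slice 10. Chromosome 3 had 87.1%, chromosome 5 had 86.9% and chromosome 13 had 79.7%. The first 3 had shares between 86.1% and 88.1% in each file taken alone, so this lean was in both files. Chromosome 13 differed more between them, with 75.5% in file 0 and 82.8% in file 1. Its file 0 share was not above the 75.9% of both files together, so its lean came from file 1.

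Chromosomes 18, 19, 7 and 10 leaned most to slice 10. Chromosome 18 had 499 windows in slice 10 and 614 in slice 11, a share in slice 11 of 55.2% (interval 52.2 to 58.1). Chromosome 19, the smallest autosome, had 310 and 398 windows, a share of 56.2% (interval 52.5 to 59.9). Both stood apart from the next, chromosome 7, at 66.7% (interval 64.5 to 68.8), and from chromosome 10 at 68.4%. Chromosomes 18 and 19 were the lowest pair in each file alone, with shares of 54.6% and 57.6% in file 0 and 55.8% and 54.8% in file 1.

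Measured per length, the same contrast was seen in each slice. In slice 10 the highest relative density, which is windows per Mb divided by windows per Mb of all autosomes in that slice, was 1.43 for chromosome 18, followed by 1.31 for chromosome 19. Both were among the lowest in slice 11, at 0.558 and 0.535. Chromosome 5 was highest in slice 11 at 1.66, with chromosome 16 next at 1.51, and chromosome 3 was lowest in slice 10 at 0.535. Chromosome 12 lay somewhat above the pooled share, with a share in slice 11 of 78.8% (interval 77.0 to 80.5) and relative densities of 1.01 in slice 10 and 1.19 in slice 11.

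The remaining autosomes ran from 69.7% in slice 11 for chromosome 8 to 79.6% for chromosome 17. In all, 8 autosomes lay above the pooled share and 11 below it. The SD over the 19 autosomes was 8.85 percentage points, inside the range of 1.71 to 20.9 for the 2 fullest slices of the other 9 nuclei. It was 1.41 points when distinct 1 Mb bins were counted. Of 2414 located bins, slice 10 reached 2169 and slice 11 reached 2406, so that count could show little of a split. The lean of an autosome bore little relation to its length (Spearman rho 0.12 across 19 autosomes, a description). The 5 nucleolar organiser chromosomes were spread over the whole range. Chromosome 16 was highest and chromosomes 18 and 19 lowest, while chromosomes 12 and 15 lay nearer the pooled share, at 78.8% and 76.2%. Of the gene-rich chromosomes 7, 11, 17 and 19, 1 leaned to slice 11. Of chromosomes 3, 13, 14 and 18, a set listed as gene-poor, 2 did. That set was not the 4 lowest in protein-coding genes per Mb. Chromosomes 12 (5.66) and 1 (6.16) lay below chromosomes 14 (6.82) and 13 (6.89). Chromosome 12 also leaned to slice 11, with a share of 78.8%. Chromosome 1 was close to the pooled share of 75.9%, at 76.8% with an interval of 75.3 to 78.2. Its share was 78.7% in file 0 and 74.9% in file 1.

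The 2 files ranked the autosomes by this lean only in part alike (rho 0.66 across 19 autosomes). The shift was widest for chromosome 9, whose share in slice 11 was 77.9% in file 0 and 65.2% in file 1, and for chromosome 6, with 67.0% in file 0 and 79.6% in file 1. Chromosomes 15 and 17 moved the same way as chromosome 9. Their shares were 79.4% and 83.8% in file 0, and 71.0% and 73.4% in file 1. The file 1 shares lay below the pooled share of 75.9%, so their lean to slice 11 was not in both files.

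**Figure D2:**
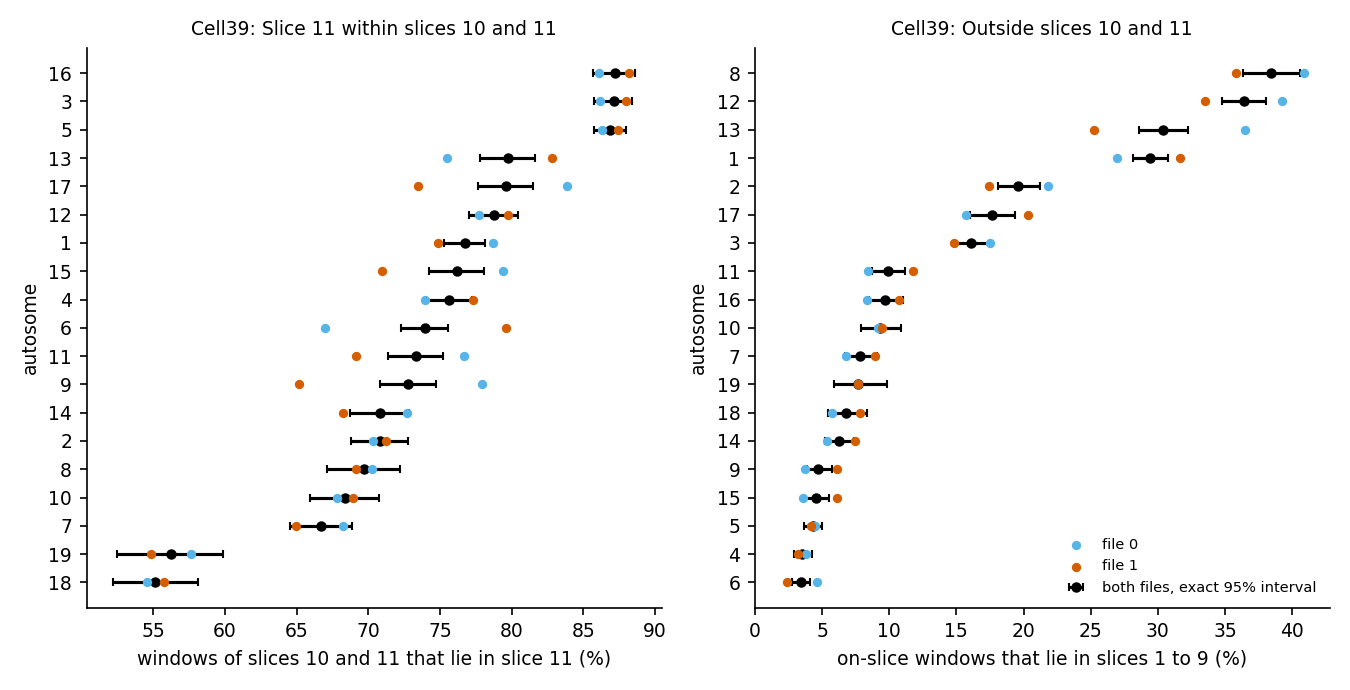
Left, percent of each autosome's windows in slices 10 and 11 that lie in slice 11; right, percent of its on-slice windows that lie in slices 1 to 9. Black points give both files added with exact 95% intervals, coloured points the single files; chromosomes 18 and 19 stand lowest on the left, and chromosomes 8, 12, 13 and 1 stand apart from the rest on the right.

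The 9 sparse slices did not hold the autosomes in proportion. Chromosome 8 had 38.5% of its on-slice windows there (interval 36.4 to 40.6), chromosome 12 had 36.4% (34.8 to 38.0), chromosome 13 had 30.4% (28.6 to 32.2) and chromosome 1 had 29.4% (28.1 to 30.8). Chromosomes 2, 17 and 3 followed with 19.6%, 17.7% and 16.1%. The other 12 autosomes were at 9.91% or less, down to 3.53% for chromosome 4 and 3.41% for chromosome 6. This ranking was nearly alike in the 2 files (rho 0.95 across 19 autosomes).

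Per length, chromosome 12 was 3.61 times as dense in the sparse slices as the autosomes together, chromosome 1 was 2.47 times, chromosome 13 was 2.17 times and chromosome 8 was 2.12 times. Chromosomes 17 and 3 were near 1, at 1.32 and 1.05. For 10 autosomes the relative density was under 0.5, and it was 0.227 for chromosome 4 and 0.232 for chromosome 6. The SD of the log2 relative density over the 19 autosomes was 1.28 in these slices, against 0.14 to 0.35 in the slices outside the fullest pair of the other 9 nuclei. Within the pair the SD in Cell39 was 0.35, inside the range of 0.11 to 0.67 elsewhere.

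Chromosomes 1, 8, 12 and 13, a set picked after their values were seen, make up 22.96% of the autosomal length. They supplied 20.998% of the windows of slice 10 and 22.1% of those of slice 11, close to that share. In the 9 sparse slices they supplied 59.0%, with a lowest value of 42.4% in slice 9 and a highest of 65.0% in slice 1. Between slice positions they supplied 66.7% of the windows below slice 10 and 33.0% of those above it. In the other 9 nuclei their part of the slices outside the fullest pair was lowest at 18.5%, had a median of 20.8% and was highest at 23.4%. The enrichment was the same in either file, 59.3% in file 0 and 58.6% in file 1.

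The sparse slices also resembled each other. Across the 19 autosomes, the 36 pairs among slices 1 to 9 had Spearman correlations of relative density from 0.71 to 0.97, with a mean of 0.85. The means over the slices outside the fullest pair of the other nuclei ran from 0.02 in Cell18 to 0.59 in Cell38. Slice 10 ran against all 9 sparse slices, with correlations from -0.69 to -0.47, and slice 11 showed little relation to them, from -0.04 to 0.18. These are descriptions over autosomes, and the slices share a nucleus and a set of chromosome lengths. Each sparse slice held few windows, and the part of that low number in the pattern was not tested.

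**Figure D3:**
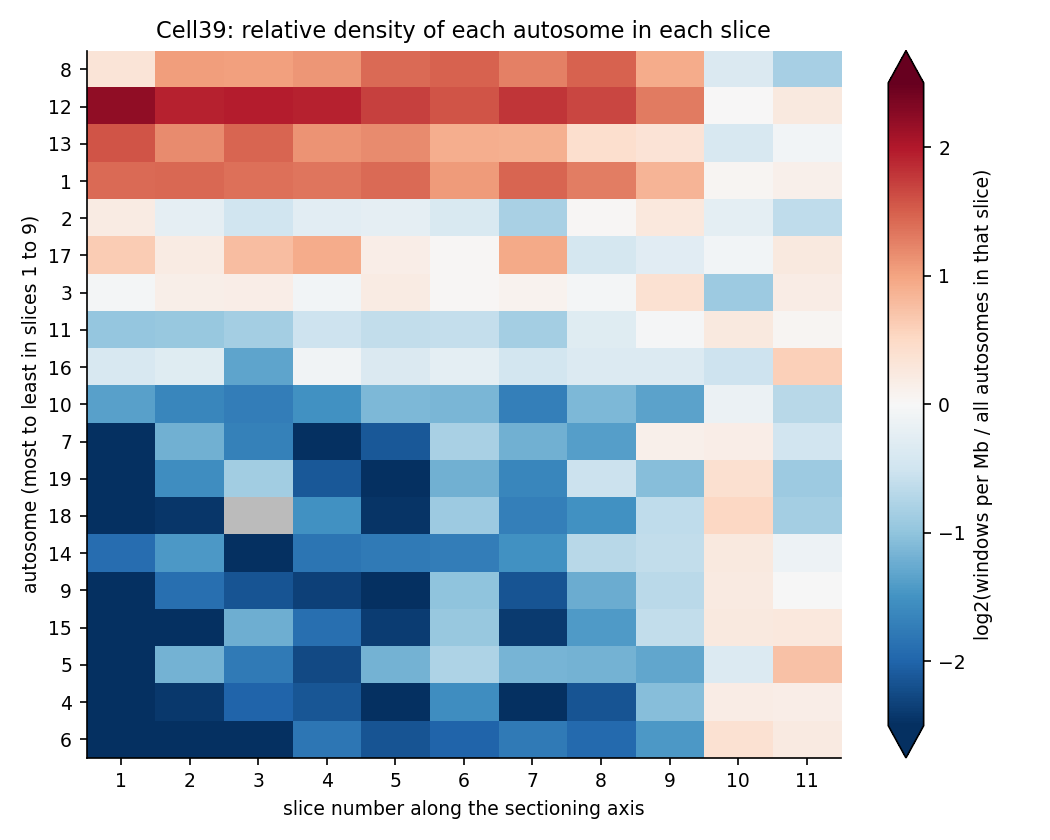
Relative density of each of 19 autosomes (rows, ordered by their part in slices 1 to 9) in each of 11 slices of Cell39 (columns), on a log2 scale where 0 is the density of all autosomes in that slice; grey marks no window. Chromosomes 8, 12, 13 and 1 are dense in slices 1 to 9, with chromosome 12 first in each of the 9, and less so in slices 10 and 11. There chromosomes 12 and 1 are at 1.01 to 1.19 times the density of all autosomes, and chromosomes 8 and 13 are below it.

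Chromosome 12 had the most windows per length of the autosomes in this nucleus. It had 4431 windows, 2292 in file 0 and 2139 in file 1, at a relative density of 1.73 (1.76 in file 0 and 1.70 in file 1), the first of the 19 autosomes. Of the 12003 windows of 10 kb in its length, 32.0% were located in at least 1 file, against 19.05% of all autosomal windows. In the other 9 nuclei its relative density was lowest at 0.743 in Cell18, had a median of 0.875 and was highest at 1.18 in Cell28, so Cell39 did not overlap with them. Counted as distinct 1 Mb bins with at least 1 window, its relative density in Cell39 was 1.002. That count was nearly full, with 118 such bins along 120.03 Mb, so it could not show an excess.

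The excess of chromosome 12 came with windows outside slices 10 and 11, both in the sparse slices and between slices. Within slices 10 and 11 alone its relative density was 1.15, the fifth of the autosomes and inside the range of 0.797 to 1.21 for the fullest pair of the other nuclei. In slices 1 to 9 it was 3.61, against 0.726 to 1.21 in the slices outside the pair elsewhere. It ranked first in each of those 9 slices, from 2.46 times the autosomal density in slice 9 to 4.64 times in slice 1, where it had 384 of 1696 windows. In slice 10 it ranked 11 and in slice 11 it ranked 4. Between slice positions its relative density was 3.28, from 970 windows. Of its windows, 50.3% lay outside the dominant pair, in sparse slices or between slices, against 25.1% for all autosomes together.

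Relative density of chromosome 12 was then tested in the other 9 nuclei. Cell39, left out, was chosen partly for its high value, which lowers the mean of the rest. The test is therefore not independent of the choice, and a mean below 0 cannot be read as a trait of these nuclei. The mean log2 relative density over those 9 nuclei was -0.14 (SD 0.21), below 0 in 7 of 9, and did not pass an exact two-sided sign-flip permutation test (p = 0.078, adjusted 0.117 over 3 tests by the Benjamini-Hochberg method; 9 nuclei allow no p below 0.0039). The 4 nuclei with prefix B16F had a mean of -0.30 and the 5 with B18F a mean of -0.02, and neither could reach 0.05, since the smallest p is 0.125 for 4 nuclei and 0.0625 for 5. Without Cell28 the mean was -0.19 with an exact p of 0.023, the lowest when any single nucleus was left out.

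Along chromosome 12 (mm10) the windows of the dominant and the sparse slices overlapped, but in varying proportion. Over its full 10 Mb segments slice 11 ran from 60 windows (30 to 40 Mb) to 334 (10 to 20 Mb). The sparse slices ran from 50 (the first 10 Mb) to 164 (110 to 120 Mb). Between 10 and 20 Mb, 334 windows lay in slice 11, 40 in slice 10 and 94 in the sparse slices, which was 20.1% of the on-slice windows of that segment. Between 40 and 50 Mb, 79 lay in slice 11, 37 in slice 10 and 147 in the sparse slices, or 55.9%. Between 90 and 100 Mb slice 11 dominated again, with 241 windows against 98. The sparse slices thus took between 20.1% and 55.9% of each full 10 Mb segment, and no segment was free of them.

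The 2 files shared this outline but not all its stretches. In slice 11, the segment from 10 to 20 Mb held 99 windows of file 0 and 235 of file 1, and the segment from 20 to 30 Mb held 107 and 206. Between 90 and 100 Mb the order was turned, with 189 windows of file 0 and 52 of file 1. Of the windows of chromosome 12, 592 were listed in both files.

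**Figure D4:**
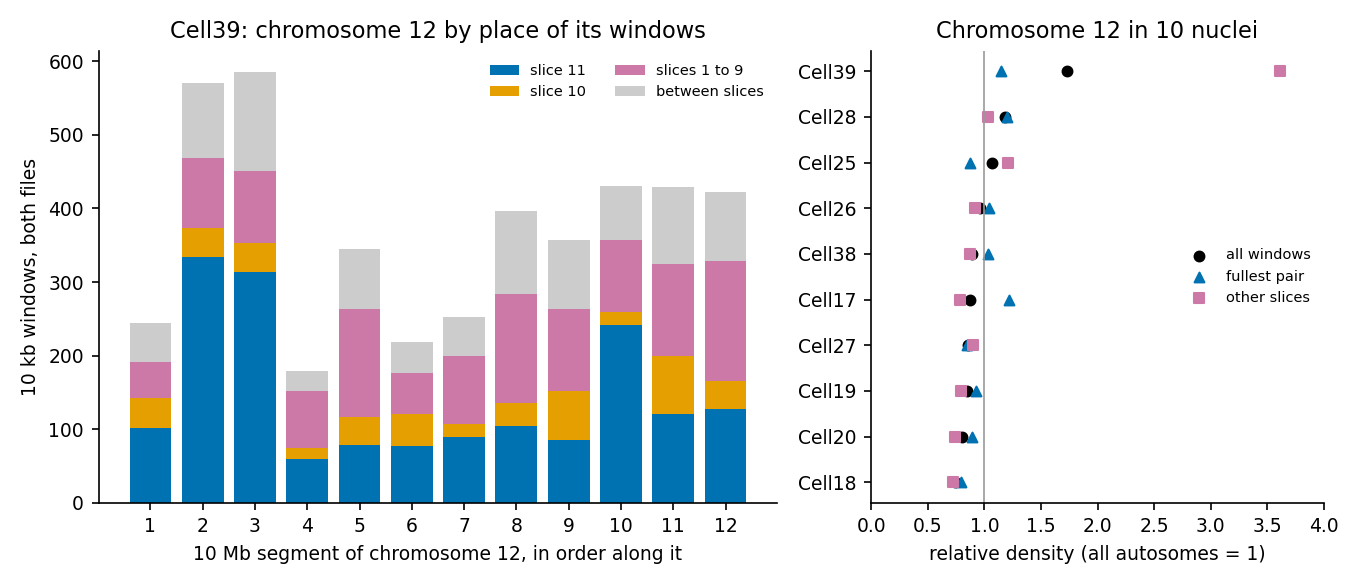
Left, windows of chromosome 12 in Cell39 (vertical axis, count over both files) in its 12 full 10 Mb segments in order along the chromosome, coloured by the slices that held them; the last segment, with 1 window, is not drawn. Right, relative density of chromosome 12 in each of 10 nuclei over all windows, the fullest pair and the other slices, where 1 (line) is the density of all autosomes. Cell39 stands apart at 1.73 over all windows and 3.61 in the other slices.

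Of 24 named chromosome 12 genes, which fall in 21 bins of 1 Mb, 17 lay in a bin where slice 11 held more windows than slice 10 or the sparse slices together, 6 in a bin where the sparse slices led in this way, and none where slice 10 did; Esrrb was tied. Windows between slices were left out of this count. Of all 118 bins of the chromosome, slice 11 led in 63 (53.4%), the sparse slices in 45 (38.1%) and slice 10 in 8 (6.78%), and 2 were tied. Gene positions are those of RefSeq on GRCm38.p6. The genes were chosen with earlier results known, and the counts describe their bins, not the genes themselves. Of the 24 genes, 15 had a located window over the gene.

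Hif1a, a transcription factor of the response to low oxygen (chr12:73901324-73947554), lay in the bin from 73 to 74 Mb. That bin had 28 windows in the sparse slices, 13 in file 0 and 15 in file 1, against 5 in slice 10 and 2 in slice 11. The bin of Max, the partner of Myc (chr12:76937269-76962323), had 24 against 4 and 4. Both bins lay in a run from 73 to 78 Mb in which the sparse slices outnumbered the pair in each bin, with 99 windows against 35. For these genes the files had nearly equal parts, 12 windows each in the bin of Max.

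The bin of Fos, an immediate-early transcription factor (chr12:85473890-85477274), had 21 windows in the sparse slices, 19 of them from file 0, against 9 in slice 10 and 4 in slice 11. Esrrb, a nuclear receptor of naive pluripotency (chr12:86361117-86521628), lay in the next bin, with 11 windows in slice 10, 4 in slice 11 and 11 in the sparse slices, the last all from file 0. These bins were unlike that of Hif1a, where both files contributed. The bin of Nkx2-1 and Pax9, developmental transcription factors of lung and thyroid and of pharynx and teeth, had 12 windows in the sparse slices against 5 and 3. That of Yy1, a zinc finger protein that binds promoters and enhancers, had 15 against 11 and 6.

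Other chromosome 12 genes lay with slice 11. The bin of Id2, an inhibitor of basic helix-loop-helix factors (chr12:25093799-25096092), had 33 windows in slice 11, 28 of them from file 1, against 1 in slice 10 and 6 in the sparse slices. The bin of Dnmt3a, a de novo DNA methyltransferase, and Pomc, a hormone precursor, had 27 against 11 and 4. Bcl11b, a T-cell transcription factor (chr12:107910403-108004145), had 11 located windows over the gene itself, 9 of them in slice 11. The imprinted genes Dlk1 and Meg3 share a bin that was divided more evenly, with 18 windows in slice 11, 11 in slice 10 and 12 in the sparse slices. The bin of Ighm, an immunoglobulin heavy chain constant gene, had 17, 8 and 13.

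The bins of the 8 named genes on other autosomes had from 0 to 3 windows in the sparse slices. The median autosome had 9.31% of its on-slice windows there, so a low count was usual and no trait of these genes. Pou5f1, the gene of Oct4 on chromosome 17, had 27 windows of its bin in slice 11, 3 in slice 10 and 1 in the sparse slices. Zfp42, the gene of the stem cell marker Rex1, had 18, 0 and 1, though its chromosome 8 had the largest part in the sparse slices. Sox2, a pluripotency factor, had 13, 4 and 3. The bin of Klf4, another pluripotency factor, was the only one led by slice 10, with 12 windows against 10 in slice 11 and 0 in the sparse slices. Nanog, a homeobox factor of pluripotency, had 12, 11 and 0. Of the Hox genes, the bin of Hoxb1 had 20, 8 and 2, that of Hoxc4 had 10, 9 and 2, and that of Hoxd1 was tied at 4, 4 and 2.

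Genome-wide, the sparse slices outnumbered the pair in 178 of 2414 bins of 1 Mb, or 7.37%. On chromosome 12 this held in 41 of 118 bins (34.7%), on chromosome 8 in 24.4%, on chromosome 1 in 20.2% and on chromosome 13 in 19.5%. On chromosomes 4, 6, 7, 9, 15, 18 and 19 it held in none. The longest runs were 6 bins. They lay at 128 to 134 Mb of chromosome 1, with 150 windows in the sparse slices against 49 in the pair, at 167 to 173 Mb of chromosome 1, with 107 against 54, and at 36 to 42 Mb of chromosome 12, with 99 against 38.

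Segments of 10 Mb whose part in the sparse slices was far above that of their chromosome lay on other autosomes too. On chromosome 17 the first 10 Mb had 43.7% of on-slice windows there, although 17.7% of the whole chromosome did. On chromosome 10 the segment from 60 to 70 Mb had 41.8% against 9.31% for the chromosome, and on chromosome 16 the segment from 10 to 20 Mb had 31.9% against 9.70%. On chromosome 2 the segment from 110 to 120 Mb had 50.4% against 19.6%. Of these 4 segments, that of chromosome 2 was the one with more windows in the sparse slices than in the pair. The same bins recurred in part in separate sparse slices. After chromosome means were subtracted, counts in odd-numbered and even-numbered sparse slices correlated with Pearson r 0.71 across the 2414 bins. Counts in file 0 and file 1 did so with r 0.60. Spearman correlations of the counts were lower, 0.51 and 0.45. Of the windows in the sparse slices, 19.7% were listed in both files, which gives the file counts a common part. The odd and even counts can have a common part too, since the files were added. Of 359 windows in a sparse slice in both files, 89 were in the same slice, and the rest could enter both counts. These are descriptions over bins of a single nucleus, and neighbouring bins are not independent.

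Between the dominant slices, slice 10 held more windows than slice 11 in 435 bins (18.02%). Chromosome 18 had the highest part, 36.4% of its bins, followed by chromosome 19 with 28.8%. The longest run was 10 bins, from 25 to 35 Mb of chromosome 14, with 112 windows in slice 10 and 40 in slice 11. On chromosome 18 a run of 6 bins from 34 to 40 Mb had 85 and 31. Neighbouring bins shared the same fuller slice of the pair in 75.9% of cases, 5.47 percentage points above the 70.5% that the chromosomes' own proportions would give. The same excess ran from 0.113 to 12.6 points in the other nuclei, and was 9.85 points in Cell39 with bins of 250 kb.

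The dominant slices differed in gene content, which was not used to choose the nucleus. Windows of slice 10 lay in bins with a mean of 10.4 protein-coding genes per Mb, those of slice 11 in bins with 8.43, and those of the sparse slices in bins with 7.86, beside 8.52 over all located bins. Slice 10 was above slice 11 in 17 of 19 autosomes, so the difference also held within most chromosomes. The sparse slices were above slice 11 in 10 of 19, so their lower mean over all windows did not hold within most chromosomes. The values were alike in the files, 10.4 and 10.3 in slice 10 and 8.65 and 8.21 in slice 11. On chromosome 18 the means were 8.43 in slice 10 and 5.44 in slice 11, and on chromosome 15 they were 11.9 and 5.86.

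Taken against the other slices, the pair of Cell39 had the higher gene density, 8.90 against 7.86 genes per Mb, a log2 ratio of 0.18. Averaged within chromosomes the log2 ratio was 0.04, and with all genes of the table, protein-coding or not, it was 0.05. In the other 9 nuclei the log2 ratio was lowest at -0.20, had a median of -0.07 and was highest at 0.01, so Cell39 lay above all of them. Their mean was -0.07 (SD 0.07), below 0 in 6 of 9 nuclei, with p = 0.031 in the exact two-sided sign-flip permutation test and 0.094 after adjustment over 3 tests, which did not pass. The 5 nuclei with prefix B18F had a mean of -0.11 and the 4 with B16F a mean of -0.03.

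The order of the autosomes along the axis was nearly the same in both files. Ranked by mean position, the 7 lowest autosomes were the same in each, chromosomes 1, 2, 3, 8, 12, 13 and 17. File 0 began with chromosome 13 at 2.355 and chromosome 12 at 2.362, then chromosome 8 at 2.44 and chromosome 1 at 2.59. File 1 began with chromosome 1 at 2.47 and chromosome 12 at 2.49, then chromosomes 8 and 13 at 2.52 and 2.59. The other 12 autosomes lay between 2.82 and 2.97 in both files, within 0.2 axis units of each other, which is the distance between neighbouring slices.

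Spearman's rho between the files was 0.93 across 19 autosomes, against 0.75 to 0.93 in the other 9 nuclei, where 0.93 was that of Cell18. The difference was wider for windows listed in a single file, where rho was 0.91 in Cell39 and ran from -0.05 to 0.64 elsewhere. Of the 19 autosomes, 5 had the same place in both files, 14 were within 2 places and 17 within 3. The largest changes were 4 places. Chromosome 9 went from the highest place, 19, in file 0 to place 15 in file 1, and chromosome 6 from place 15 to place 19. Both had few windows in the sparse slices, and their mean positions moved from 2.96 to 2.91 and from 2.93 to 2.97.

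**Figure D5:**
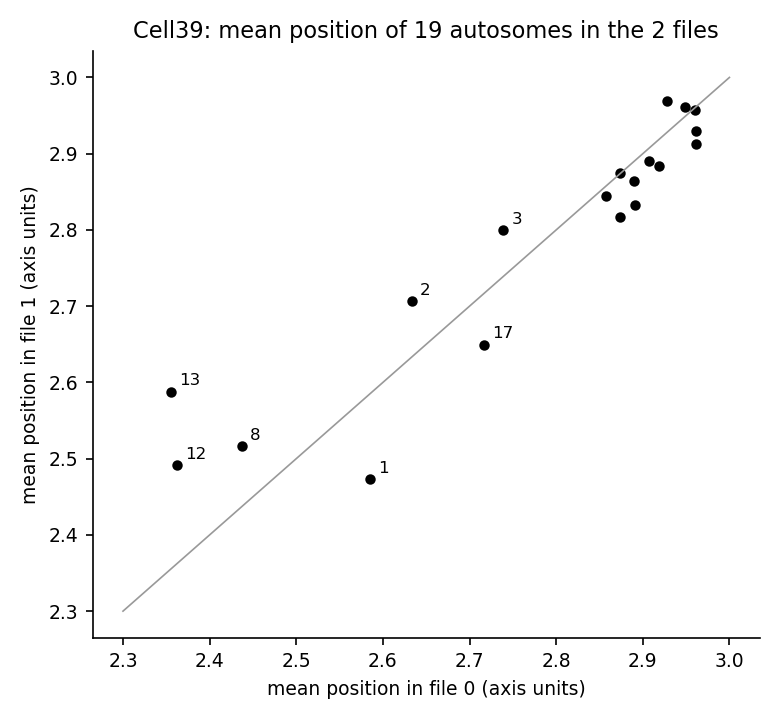
Mean position of each of 19 autosomes of Cell39 in file 0 (horizontal axis) and file 1 (vertical axis), in axis units; the line marks equal positions, and autosomes with more than 15% of their on-slice windows in slices 1 to 9 are labelled. The 7 labelled autosomes lie lower in both files, and the other 12 crowd near the top end of the axis.

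Windows listed in both files gave the order a common part. There were 5662 such windows, and 66.8% of them had the same position in each file. Of the 1248 with slice 10 in file 0 and a slice position in file 1, 92.7% were again in slice 10, and of the 2638 with slice 11 the part was 96.1%. Of all 776 with a sparse slice in file 0, 359 (46.3%) were in a sparse slice in file 1, 356 lay between slices there and 61 lay in the pair. Among the 420 of these with a slice position in file 1, 89 (21.2%) were in the same slice. With windows between slices counted in the same way, 86.4% of the 1339 in slice 10 and 90.7% of the 2794 in slice 11 of file 0 were in that slice again in file 1.

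The lean of the autosomes toward slice 10 or slice 11 was also set against their distances in the nuclei that were not used to define it. In Cell39 itself, pairs of opposite lean were 0.221 axis units apart in mean position and pairs of the same lean 0.180, a log2 ratio of 0.30 that the choice of the sets could fix. In the other 9 nuclei the log2 ratio was lowest at -0.17, had a median of -0.11 and was highest at 0.22. Its mean was -0.05 (SD 0.13), above 0 in 2 of 9 nuclei, and did not pass the exact two-sided sign-flip permutation test (p = 0.242, adjusted 0.242 over 3 tests). The mean was -0.10 over the 5 nuclei with prefix B18F and 0.01 over the 4 with B16F. Without Cell20, the nucleus with the highest ratio, it was -0.09, with an exact sign-flip p of 0.039, not adjusted. With any other single nucleus left out, the sign-flip p ran from 0.148 to 0.406.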

How the data were processed

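Per the submitters' processing notes, reads were trimmed with Trim Galore 0.6.4, aligned to mm10 with Bowtie2 2.3.5 and handled with Picard; how positions were assigned is not given in the sources used here. The deposited values are positions on an axis of unnamed unit (unit class other) for 10 kb windows, 2 files per nucleus, and were used as deposited; all columns were of this series. Autosomal windows within 1e-06 of a multiple of 0.2 above the nucleus's lowest position were put on slices, and files were added. Chromosome length was the end of the last located window over all files. Gene counts per 1 Mb bin came from RefSeq on GRCm38.p6, which shares its primary coordinates with mm10; the table held 20665 autosomal protein-coding genes.

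The values that chose Cell39 carry no test in that nucleus. For 3 measures, values were put to an exact two-sided sign-flip permutation test over the other 9 nuclei, with Benjamini-Hochberg adjustment over the 3. For chromosome 12 density, leaving out Cell39 lowers the mean of the rest, so that test is not independent of the choice. The members, chromosome sets and gene list were chosen with earlier results of these data known. Described in full were chromosome 12, the 4 highest and 4 lowest autosomes by share in slice 11, the 2 with the largest change of place, and a list of pluripotency, Hox and chromosome 12 genes, of which 2 are not reported here. Alternatives were single files, nearest slices, distinct bins, windows in 1 file only, single batches and each nucleus left out. The slice numbering and the 3 tested measures were tried on simulated data in Python 3.11.15 with numpy 2.4.6 and pandas 2.3.3. For chromosome 12 the simulation fixed the outcome in advance, and the other descriptions were not simulated.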

Additional observations from a re-analysis of the deposited data

Results flagged for a closer look

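Values that chose Cell39, or that its choice fixes, were not examined for outliers. In 5 other measures over the 10 nuclei (number of windows, part of them on slices, SD of the split of the fullest pair, gene density ratio and block excess), no nucleus stood apart by more than Dixon's 95% limit.

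The log2 relative density of chromosome 12 in the other nuclei differed between batches, B18F minus B16F being 0.27 (5 against 4 nuclei, exact permutation p = 0.040 over 126 splits, the only one of 3 such comparisons under 0.05 and not adjusted).

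Sequences outside the autosomes were not used above. Cell39 had 3430 windows on X, with 37.8% of its 2774 on-slice windows in slices 1 to 9, between the values of chromosomes 12 and 8. It had 770 windows on Y, with 23.04% of 716 in slices 1 to 9. A further 239 windows lay on unplaced or random sequence, with 1.26% of 159 in slices 1 to 9, and 2 on mitochondrial DNA.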

How the results depend on the processing

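Of 83 alternatives, 57 kept direction and side of the threshold (or, without a test, moved by less than 1 SD over the other nuclei). Counting distinct 1 Mb bins, where a bin counts once however many windows it holds, gave a fullest pair share of 52.5%, an SD of the split between slices 10 and 11 of 1.41 points, a chromosome 12 density of 1.002 in Cell39 and a mean log2 of 0.0018 in the other nuclei. Nearly all bins held a window in Cell39, so this count was bound to give a small split and a chromosome 12 density near 1. The density of chromosome 12 in Cell39 was 3.61 without the fullest slices and 1.15 in them alone. Its mean log2 in the other nuclei was -0.19 (sign-flip test, p = 0.043) outside their fullest pairs, an alternative chosen after seeing the data. It was -0.19 to -0.11 with each nucleus left out. Leaving out Cell39, chosen partly for this density, lowers all these means. The order of autosomes by share in slice 11 had rho 0.66. The log2 pair distance ratio was 0.0108 with the lean of file 0 and 0.0082 in B16F alone, and -0.0895 to -0.0407 with each nucleus left out. The log2 gene density ratio of the other nuclei was -0.0392 with nearest slices, -0.0645 in file 0, -0.0582 in file 1, -0.112 in B18F, -0.0265 in B16F and -0.0847 to -0.0586 with each nucleus left out. None of the first 5 reached 0.05, which the single batches B18F and B16F could not do with so few nuclei. It was -0.0496 with all genes (p = 0.023) and -0.0663 within chromosomes (p = 0.043), both by the sign-flip test and not adjusted. In Cell39 the log2 gene density ratio was 0.053 with all genes and 0.036 within chromosomes, both added after seeing the data. The block excess was 9.85 points in 250 kb bins. The causes of these shifts were not tested. A single nucleus of this kind and unknown read depth limit what can be read from it.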
